A study of Mus musculus with 8 samples.

Results

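Conventional type 1 dendritic cells (cDC1) of the posterior mouse eye were described from single-cell RNA libraries with surface protein counts of the same cells. A cell was counted as a cDC1 when it held at least 1 UMI (unique molecular identifier, 1 counted RNA molecule) of at least 2 of the 5 genes *Xcr1*, *Clec9a*, *Tlr3*, *Cadm1* and *Wdfy4*, with *Xcr1* or *Clec9a* among them. It also had to hold at least 1 UMI of the MHC class II gene *H2-Aa* and 0 UMIs of *Ccr7*, *Cd3e* and *Cd79a*, which are used by migratory dendritic cells, T cells and B cells. The cells were thus chosen by their own RNA counts. Cells in which fewer than 200 or more than 5000 genes were detected, or whose mitochondrial share exceeded 15%, were left out beforehand. The rule found 241 cDC1 among the 11223 cells that remained. They were 52 cells of 1649 in *Nr4a1-/-* laser and 88 of 3791 in WT laser, against 46 of 2020 in *Nr4a1-/-* control and 55 of 3763 in WT control.

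The cDC1 are the dendritic cells that take up dying cells and present their contents on MHC class I to CD8 T cells, a process called cross-presentation. The transcription factors *Irf8* and *Batf3* are required for their development. *Xcr1* is the receptor for a chemokine made by NK cells and activated CD8 T cells, *Clec9a* binds actin exposed by dead cells, *Tlr3* senses double-stranded RNA, and *Wdfy4* is required for cross-presentation of cell-bound antigen. Conventional type 2 dendritic cells (cDC2) form the other main branch and are known for presenting antigen to CD4 T cells.

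The *Nr4a1-/-* laser and WT laser groups were female mice of 10 to 12 weeks, 11 to 12 per group, which received 8 focal laser burns per eye and were examined on day 3. The *Nr4a1-/-* control and WT control groups were 22 female mice each of the same age without laser, called sham in the treatment field. The burns induce choroidal neovascularization (CNV), the growth of vessels from the choroid. All eye cups of a group were pooled, enriched for CD45, sorted for live CD45+ cells and made into 1 library, so no group has a replicate and no p-value between groups was computed. The *Nr4a1-/-* mice lack the nuclear receptor in every cell type, so no difference between genotypes can be placed in cDC1 themselves. The study's methods name a mixed strain background for the *Nr4a1-/-* mice, whereas the labels give C57BL/6J for every sample, and strain cannot be told apart from genotype. The label of *Nr4a1-/-* control has a name prefix that differs from the one shared by the other 3 libraries, and the labels do not say what it stands for. The genotype and treatment fields of the surface protein samples read the same for all 4, against their titles, and the titles were used.

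RNA depth ran from 7848548 UMIs in *Nr4a1-/-* laser to 38052948 in WT laser. The median cDC1 held 7781.5 UMIs in *Nr4a1-/-* laser and 16058.5 in WT laser, against 14324.5 in *Nr4a1-/-* control and 13789 in WT control, so cDC1 of *Nr4a1-/-* laser were the shallowest. Levels below are UMIs summed over the cDC1 of a library and scaled to a common total (CPM), with exact 95% intervals that cover counting error only. A count of 0 allows up to 3 UMIs, which is 7.28 CPM in *Nr4a1-/-* laser and 2.15 in WT laser, against 4.35 in *Nr4a1-/-* control and 3.82 in WT control. Across the libraries, 18 barcodes occurred in more than 1 library, and in 2 of these cases a cDC1 was involved.

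The 5 marker genes that chose the cells were not equally frequent in them. Over the 4 libraries, 94.6% of the cDC1 held a UMI of *Clec9a*, 94.2% of *Wdfy4*, 71.0% of *Cadm1*, 66.8% of *Xcr1* and 55.6% of *Tlr3*. B cells should lack these genes apart from *Wdfy4*, and their shares were 0.642% for *Clec9a*, 3.08% for *Cadm1*, 0.257% for *Xcr1* and 1.03% for *Tlr3*, at a median of 4362 UMIs per B cell against 13789 per cDC1. *Wdfy4* was found in 68.6% of B cells, so it did not set cDC1 apart from them. *Clec9a* had 310.4 CPM in *Nr4a1-/-* laser and 231 in WT laser, against 404 in *Nr4a1-/-* control and 409 in WT control, and *Xcr1* had 187 CPM in *Nr4a1-/-* laser and 146 in WT laser, against 268 in *Nr4a1-/-* control and 264 in WT control. Both were at their 2 lowest levels in the laser libraries. These genes defined the cells, and their levels are given as a description.

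Cells at the edge of the rule differed from those at its core. The 56 cDC1 with exactly 2 markers had 164 CPM of *Irf8*, 159 of *Naaa*, 751 of the macrophage gene *C1qb* and 210.1 of the cDC2 gene *Cd209a*, as sums over the libraries. The 97 cDC1 with all 5 markers had 650.2 CPM of *Irf8*, 678 of *Naaa*, 119.8 of *C1qb* and 0 of *Cd209a*. Just outside the rule, 37 cells with *Xcr1* or *Clec9a* as their single marker had 194 CPM of *Irf8*, 124 of *Naaa*, 947 of *C1qb* and 336 of *Cd209a*. In these sums the 2-marker cells stood nearer to the cells outside than to the 5-marker cells, but the *C1qb* sum was carried by WT laser. The 2-marker cells had 43.6 CPM of *C1qb* in *Nr4a1-/-* laser and 1126 in WT laser, against 311 in *Nr4a1-/-* control and 29.2 in WT control. *Cd209a* was found in the 2-marker cells of every library and in 0 of the 5-marker cells. Surface protein counts, which the rule did not use, stood likewise, without cells of at least 5000 such counts. Of 10000 counts, 22.5 were of the cDC1 protein CD103 in 2-marker cells, 350 in 5-marker cells and 10.9 in the cells outside. For CD11b they were 981, 278 and 1051, and for the cDC2 protein CD172a 47.6, 17.5 and 55.9. The name cDC1 is thus much less sure for the 56 cells with 2 markers than for the 185 with at least 3, in RNA and in protein. These 2-marker cells were 10 of 52 in *Nr4a1-/-* laser and 29 of 88 in WT laser, against 10 of 46 in *Nr4a1-/-* control and 7 of 55 in WT control.

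Markers of other cell types were present in some cDC1, and WT laser stood apart. The 10 macrophage markers summed to 272 CPM in *Nr4a1-/-* laser and 1383 in WT laser, against 326 in *Nr4a1-/-* control and 169 in WT control. In WT laser, 29 of 88 cDC1 held at least 3 of these UMIs, and all 10 genes were detected. The 5 neutrophil markers summed to 126 CPM in *Nr4a1-/-* laser and 126 in WT laser, against 1.45 in *Nr4a1-/-* control and 944 in WT control, and single cells held most of these UMIs in every library. In *Nr4a1-/-* control, 1 cell held all 68 UMIs of the 5 NK cell markers. The 5 B cell markers summed to 96.8 to 113 CPM, of which 87.9 to 106 CPM were from *Ighm*. The 5 T cell markers summed to 1.27 to 8.69 CPM, and the 6 photoreceptor transcripts to 0 to 7.17. The 5 plasmacytoid markers, of another dendritic lineage, summed to 34.0 CPM in *Nr4a1-/-* laser and 57.4 in WT laser, against 289.8 in *Nr4a1-/-* control and 167 in WT control. In all, 13, 58, 20 and 18 cDC1 of *Nr4a1-/-* laser, WT laser, *Nr4a1-/-* control and WT control held at least 3 UMIs of macrophage, B, T, NK or neutrophil markers.

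The cDC1 made up a few percent of the sorted cells in every library. Their share was 3.15% (2.36 to 4.11, exact Clopper-Pearson interval) in *Nr4a1-/-* laser and 2.32% (1.87 to 2.85) in WT laser, against 2.28% (1.67 to 3.03) in *Nr4a1-/-* control and 1.46% (1.10 to 1.90) in WT control. Over all kept cells, the share was higher in laser than in control within each genotype. Without B and T cells this was hardly so in *Nr4a1-/-* eyes, as given at the end of this paragraph. The ratio of shares, laser over control, was 1.38 (0.913 to 2.11) in *Nr4a1-/-* eyes and 1.59 (1.12 to 2.27) in WT eyes. The ratio of *Nr4a1-/-* to WT was 1.36 (0.945 to 1.94) after laser and 1.56 (1.03 to 2.35) in control. With 1 library per group, these intervals do not cover the spread between pools of mice. The ratio in WT eyes depended on cells with few markers or with RNA of other lineages: it was 1.22 (0.819 to 1.82) with at least 3 markers, and 0.805 without cells that held at least 3 UMIs of other lineages. After cells under 2000 UMIs were left out and all others thinned to 2000 UMIs, it was 1.03. The cells left out were unevenly spread. They were 37 of 120 B cells in *Nr4a1-/-* laser and 7 of 341 in WT laser, but 1 cDC1 in each of these libraries. The ratio of *Nr4a1-/-* to WT after laser was 2.20 (1.31 to 3.66) after thinning, and 2.99 (1.81 to 4.98) without the cells of other lineages. That cut at 3 UMIs removed 58 of 88 cDC1 in WT laser and 13 of 52 in *Nr4a1-/-* laser, where cDC1 were shallower. It counted B cell markers too, and 25 cDC1 of WT laser held at least 3 UMIs of these. The part of depth in this ratio was not tested. In control the ratio of *Nr4a1-/-* to WT was 1.40 (0.881 to 2.20) with at least 3 markers and 1.58 (0.943 to 2.64) after thinning. It was 1.31 (0.761 to 2.22) without the cells of other lineages, so each of these intervals included 1. Some kept cells lay in a B cell gate (*Cd79a* and *Ms4a1*, no *Cd3e*) or a T cell gate (*Cd3e* and *Cd3g*, no *Cd79a*). Over the other kept cells, laser over control was 1.06 (0.697 to 1.61) in *Nr4a1-/-* eyes and 1.43 (1.01 to 2.03) in WT eyes. There *Nr4a1-/-* over WT was 1.20 (0.833 to 1.71) after laser and 1.61 (1.07 to 2.43) in control.

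Among dendritic cells the order differed. A cDC2 gate (*Cd209a*, *Flt3* and *H2-Aa* detected, with 0 UMIs of *Xcr1*, *Clec9a*, *Ccr7*, *Cd3e* and *Cd79a*) held 135 cells, and a migratory gate (*Ccr7*, *Fscn1* and *H2-Aa* detected, with 0 UMIs of *Cd3e* and *Cd79a*) held 75. The cDC2 gate held 18 cells in *Nr4a1-/-* laser and 68 in WT laser, against 28 in *Nr4a1-/-* control and 21 in WT control. The migratory gate held 17 in *Nr4a1-/-* laser and 47 in WT laser, against 5 in *Nr4a1-/-* control and 6 in WT control. Of the cells in these 3 gates, cDC1 were 59.8% (48.7 to 70.1) in *Nr4a1-/-* laser and 43.3% (36.4 to 50.5) in WT laser, against 58.2% (46.6 to 69.2) in *Nr4a1-/-* control and 67.1% (55.8 to 77.1) in WT control. WT laser had the lowest share, and its interval did not overlap that of WT control. The ratio of laser to control was 0.646 (0.456 to 0.922) in WT eyes and 1.03 (0.677 to 1.56) in *Nr4a1-/-* eyes. A gate by detected genes finds more cells where cells are deeper, and the median depth of the libraries differed.

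**Figure D1:**
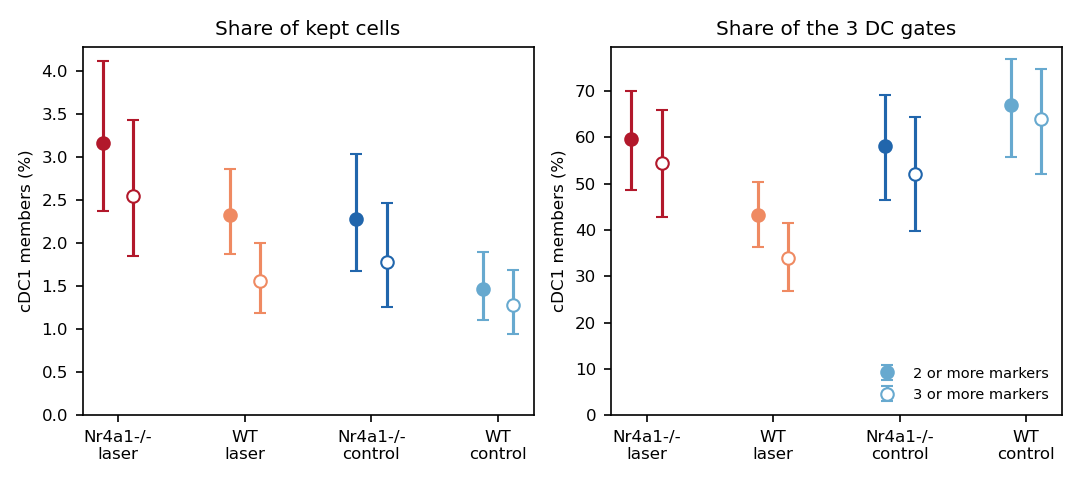
Share of cDC1 in percent (y axis) of all kept cells (left) and of the 3 dendritic cell gates (right) in each library (x axis), with exact 95% Clopper-Pearson intervals as bars. Filled points are cells with at least 2 of the 5 markers and open points those with at least 3. *Nr4a1-/-* laser had the highest share of kept cells (3.15%), and WT laser the lowest share of the dendritic gates (43.3%).

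Beyond the genes of the rule, cDC1 carried the transcripts known for this lineage. The gates were drawn on RNA, so differences between them are described with no test. Of 3355 genes, 65 (1.94%) were at least 2-fold higher in cDC1 than in the cDC2 gate in all 4 libraries, and 80 (2.38%) at least 2-fold lower. Of 15 measured cDC1 genes outside the rule, 9 were among the higher genes and 0 among the lower. *Irf8* had 497 CPM in *Nr4a1-/-* laser and 473 in WT laser, against 543 in *Nr4a1-/-* control and 572 in WT control, and 14.7 to 67.5 in the cDC2 gate. All 4 cDC1 levels of *Irf8* lay above all 4 cDC2 levels. The lysosomal amidase *Naaa* had 526 to 571 CPM in cDC1, against 54 to 176 in the cDC2 gate. *Ppt1*, a lysosomal enzyme that removes palmitate from proteins, had 619.7 to 781 CPM in cDC1, against 44 to 81 in the cDC2 gate. The surface protein gene *Cd24a* had 251 to 269 CPM in cDC1, against 27 to 55.7 in the cDC2 gate, and the GTPase gene *Rab7b* 305 to 523 CPM in cDC1, against 52.8 to 108 in the cDC2 gate. None of these ranges overlapped. *Ifi205*, *Gcsam*, *Rtl8a* and *Sept3* were the other genes of the 9. The remaining 6 included *Batf3* with 64.9 to 120.5 CPM in cDC1, against 25.5 to 73.3 in the cDC2 gate, and *Itgae*, which encodes the CD103 integrin chain, with 134 to 153 CPM in cDC1, against 0 to 74.2 in the cDC2 gate.

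Ranked by the smallest ratio over the libraries, the genes furthest above the cDC2 gate were *Clec9a* and *Xcr1*, which the gates used, followed by *P3h2*, *Gcsam*, *Plce1*, *Dnase1l3*, *Agpat3*, the rule gene *Tlr3*, *Gm36723*, *Ly75*, *Timeless* and *Nck2*. *P3h2*, a collagen prolyl hydroxylase, had 257 CPM in *Nr4a1-/-* laser and 147 in WT laser, against 545 in *Nr4a1-/-* control and 572 in WT control, and its cDC2 gate levels were 4.91 to 21.2 CPM. *Gcsam*, a signalling adaptor gene first known from germinal centre B cells, had 42.3 to 103 CPM in cDC1 and was at 0 in the cDC2 gate of every library. *Dnase1l3*, a secreted DNase, had 31.6 to 75.1 CPM in cDC1 and was also at 0 in every cDC2 gate, but its migratory gate levels of 24.4 to 264 CPM overlapped those of cDC1. *Ly75*, the endocytic receptor DEC-205, had 42 to 102 CPM in cDC1, against 405 to 844 in the migratory gate and 0 to 6.75 in the cDC2 gate. *Ly75* was thus higher in cDC1 than in cDC2 and lower than in migratory cells.

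The genes furthest below the cDC2 gate were *Cd209a*, which that gate used, then *Ccl17*, *Tnfsf9*, *Flrt3*, *Mcemp1*, *Clec10a*, *S100a4*, *Sdc4*, *Tmem176a*, *Hpgd*, *Mir155hg* and *Batf*. The cDC2 factor *Irf4* had 10.2 to 35.9 CPM in cDC1, against 93.8 to 121 in the cDC2 gate, and the lectin gene *Clec10a* 11.6 to 63.1 CPM in cDC1, against 263 to 297 in the cDC2 gate. Of 10 measured cDC2 genes, 6 were lower in cDC1 in all libraries and 0 higher, with *Cd209a*, which that gate required, among the 6. *S100a4*, a calcium-binding protein gene, had 222 to 313 CPM in cDC1, against 1106 to 1852 in the cDC2 gate. The chemokine receptor gene *Ccr1*, the oxidase subunit gene *Cybb*, *Tlr2* and the NF-kB inhibitor gene *Nfkbia* were also lower. *Nfkbia* had 373 to 604 CPM in cDC1, against 836 to 1891 in the cDC2 gate.

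Genes of antigen presentation on MHC class II were compared between the gates, each of which required *H2-Aa*. Of 11 genes, 0 were 2-fold higher and 0 lower in all 4 libraries, against 1.94% and 2.38% of all genes. *Cd74*, the invariant chain, had 16854 to 19441 CPM in cDC1, against 18956 to 24103 in the cDC2 gate, and *H2-Ab1* 8065 to 9865 CPM in cDC1, against 9147 to 10069 in the cDC2 gate. Among 20 genes of MHC class I and cross-presentation, *Cybb* was lower and 0 were higher at 2-fold. *Psmb8*, an immunoproteasome subunit, and *Psme1*, a proteasome activator subunit, were nonetheless above cDC2 in each library, and other immunoproteasome genes are not given. *Psmb8* had 736 to 929 CPM in cDC1, against 438 to 583 in the cDC2 gate, and *Psme1* 698 to 777 CPM in cDC1, against 323 to 385 in the cDC2 gate. Both ranges were apart. *Cst3*, the protease inhibitor cystatin C, had 12669 to 16096 CPM in cDC1, against 3151 to 4865 in the cDC2 gate and was the dendritic cell gene of the list that passed 2-fold in every library. Of 8 costimulation and maturation genes, *Cd40* and *Icam1* were lower in cDC1 and 0 were higher. *Cd40* had 17 to 38.7 CPM in cDC1, against 74.2 to 166 in the cDC2 gate, and *Cd86* 556 to 919 CPM in cDC1, against 641 to 1039 in the cDC2 gate, with overlapping ranges for *Cd86*.

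Against the migratory gate, 179 of 3572 genes (5.01%) were 2-fold higher in cDC1 in all 4 libraries and 334 (9.35%) lower. That gate held 5 and 6 cells in the control libraries, so its levels there rest on few cells. *Fscn1*, the actin bundler that marks migrating dendritic cells and was used for that gate, had 0 to 1.27 CPM in cDC1, against 681 to 1434 in the migratory gate. *H2-Ab1* had 8065 to 9865 CPM in cDC1, against 1979 to 4904 in the migratory gate, and *Naaa* 526 to 571 CPM in cDC1, against 27.9 to 37.7 in the migratory gate. *Irf8* did not set the 2 gates apart, with 473 to 572 CPM in cDC1, against 229.5 to 773 in the migratory gate. *Cd8a* and *Cd207*, which mark cDC1 of some other mouse organs, had low levels here, with 0 to 5.80 CPM for *Cd8a* and 0 to 31.9 CPM for *Cd207* in cDC1.

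**Figure D2:**
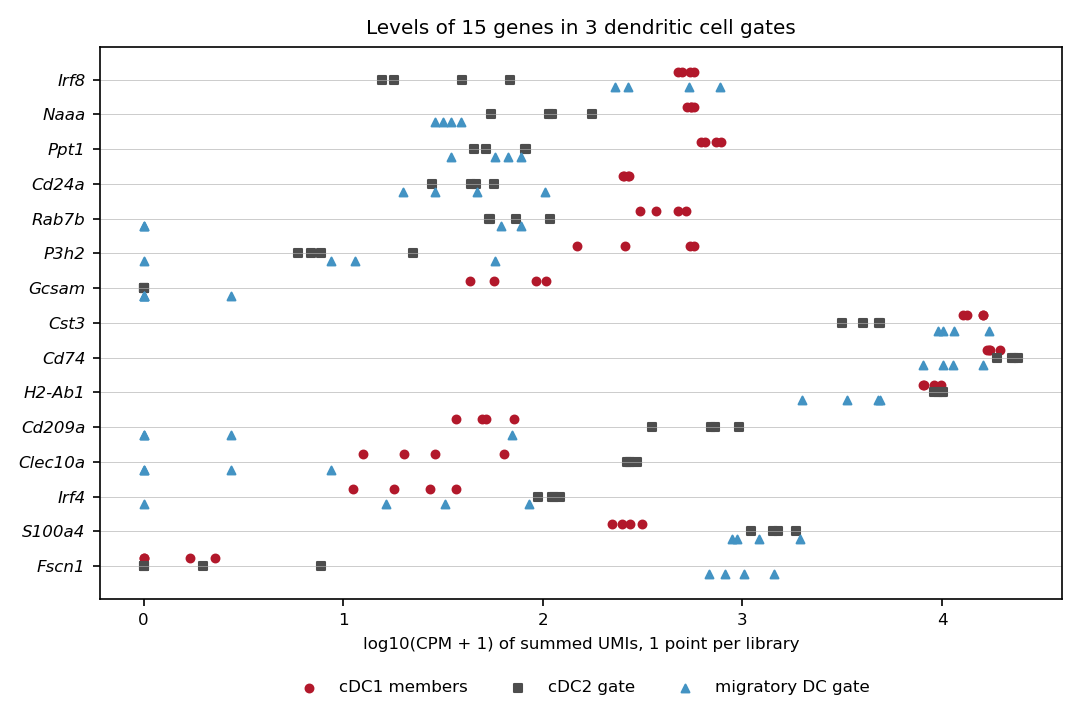
Levels of 15 genes as log10 of CPM + 1 (x axis) in cDC1, the cDC2 gate and the migratory gate, with 1 point per library and gate. The cDC1 points lie right of the cDC2 points for *Irf8* down to *Cst3* and left of them for *Cd209a* down to *S100a4*, while those of *Cd74* and *H2-Ab1* lie close together.

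Surface proteins were counted with antibodies that carry DNA barcodes (ADT). No gate used them, so they are measured independently of the rule. ADT counts were summed per gate and library and compared with edgeR's quasi-likelihood test with the library as a block, for 86 ADTs. The test called 4 ADTs higher in cDC1 than in the cDC2 gate (4.65%) and 4 lower (4.65%), at an adjusted p under 0.05. No isotype control was on the panel, so unspecific binding was not measured. Counts are given per 10000 ADT counts of a gate. In *Nr4a1-/-* control, 1 cDC1 held 15031 of the 37227 ADT counts of that gate, 14335 of them of CD45. In *Nr4a1-/-* laser, 1 cDC1 held 6102 of 17661, 5836 of them of CD11c. Each of these cells lowers the values of all other ADTs in cDC1 of its library, and values below include them unless stated. Without them, cDC1 had 125 for CD103 and 632 for CD11b in *Nr4a1-/-* laser. In *Nr4a1-/-* control cDC1 then had 761 for CD103 and 262 for CD11b. The p-values rest on 4 pairs of sums from pooled mice, 1 pair per condition.

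CD103, the integrin chain by which tissue cDC1 bind E-cadherin, gave the largest difference of the 86 ADTs. Its counts per 10000 ADT counts, cDC1 against cDC2, were 82.7 against 13.5 in *Nr4a1-/-* laser, 55.2 against 11.5 in WT laser, 455 against 18.4 in *Nr4a1-/-* control, 111 against 2.13 in WT control. It was higher in cDC1 in each library, with a log2 difference of 3.94 ± 0.69 (SE, edgeR's quasi-likelihood test, adjusted p = 0.0038). Without *Nr4a1-/-* laser its log2 difference was 4.41, with an adjusted p of 0.148 in edgeR's test. CD103 counts were far higher in cDC1 of *Nr4a1-/-* control than in the other libraries, whereas *Itgae* RNA had 153 CPM in *Nr4a1-/-* laser and 134 in WT laser, against 143 in *Nr4a1-/-* control and 135 in WT control. CD11a, an integrin chain of leukocytes, had 129 against 40.5 in *Nr4a1-/-* laser, 149.8 against 81.8 in WT laser, 314 against 129 in *Nr4a1-/-* control, 635 against 183 in WT control, with a log2 difference of 1.67 ± 0.42 (SE, edgeR's quasi-likelihood test, adjusted p = 0.021). Tim-4, a receptor for phosphatidylserine on dying cells, had 23.8 against 15.2 in *Nr4a1-/-* laser, 20.03 against 8.31 in WT laser, 18.8 against 10.2 in *Nr4a1-/-* control, 27 against 6.39 in WT control, with a log2 difference of 1.44 ± 0.35 (SE, edgeR's quasi-likelihood test, adjusted p = 0.021). Both were higher in cDC1 in 4 of 4 libraries. Both lost the call when *Nr4a1-/-* laser (log2 1.65, adjusted p = 0.269 for CD11a and log2 1.63, adjusted p = 0.148 for Tim-4 in edgeR's test), *Nr4a1-/-* control or WT control was left out, and Tim-4 also without WT laser (adjusted p = 0.0744). Without the cells of at least 5000 ADT counts, edgeR's adjusted p was 0.0625 for CD11a and 0.0782 for Tim-4. DESeq2 kept both calls without these cells (adjusted p = 0.0017 and 0.0321). Without cells of other lineages, edgeR's adjusted p was 0.152 for CD11a and 0.265 for Tim-4.

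CD11c was called higher, but the call depended on cells with very high ADT counts. A single cDC1 of *Nr4a1-/-* laser held 5836 of the 6183 CD11c counts of that library. CD11c had 3501 against 179 in *Nr4a1-/-* laser, 165 against 115 in WT laser, 39.5 against 7.49 in *Nr4a1-/-* control, 646 against 134 in WT control, with a log2 difference of 2.68 ± 0.72 (SE, edgeR's quasi-likelihood test, adjusted p = 0.0288). Without this cell and 1 other cDC1 of at least 5000 ADT counts, the difference was 1.52 and edgeR's adjusted p was 0.318. Without the same cells, DESeq2 gave 1.49 (adjusted p = 0.0501), and edgeR with total counts in place of TMM 1.59 (adjusted p = 0.00403). Over all alternatives of edgeR and DESeq2, the call held in 6 of 15. A filter of 1 count was 1 of the 15, but it kept the same 86 ADTs and could not change a call. CD11c was higher in cDC1 in 4 of 4 libraries with these cells included and also without them. Without them it had 300 against 179 in *Nr4a1-/-* laser and 66.2 against 7.49 in *Nr4a1-/-* control.

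The 4 ADTs lower in cDC1 belong to cDC2 and macrophages. CD301b, a lectin of cDC2, had 13 against 33.8 in *Nr4a1-/-* laser, 15.5 against 53.6 in WT laser, 5.1 against 121 in *Nr4a1-/-* control, 5.62 against 111 in WT control. Its log2 difference was -2.79 ± 0.43 (SE, edgeR's quasi-likelihood test, adjusted p = 0.00227). It was called by edgeR or DESeq2 under 15 of 15 alternatives, the filter of 1 count that could not change a call among them. CD11b, an integrin chain of myeloid cells, had 418 against 1315 in *Nr4a1-/-* laser, 575 against 1289 in WT laser, 164 against 2078 in *Nr4a1-/-* control, 444 against 1739.9 in WT control, with a log2 difference of -1.85 ± 0.43 (SE, edgeR's quasi-likelihood test, adjusted p = 0.021). CD172a (SIRPa), the usual marker to separate cDC2 from cDC1, had 13 against 42.2 in *Nr4a1-/-* laser, 45.5 against 46.1 in WT laser, 7.52 against 33.4 in *Nr4a1-/-* control, 21.1 against 71 in WT control, with a log2 difference of -1.12 ± 0.28 (SE, edgeR's quasi-likelihood test, adjusted p = 0.021). It was lower in 4 of 4 libraries, but almost equal in WT laser. CD163, a haptoglobin scavenger receptor, had 31.7 against 82.7 in *Nr4a1-/-* laser, 50.2 against 59.5 in WT laser, 16.7 against 83.1 in *Nr4a1-/-* control, 33.4 against 103 in WT control, with a log2 difference of -1.13 ± 0.27 (SE, edgeR's quasi-likelihood test, adjusted p = 0.021). CD301b alone kept its call without each library in turn. CD11b, CD172a and CD163 lost theirs without *Nr4a1-/-* laser, with log2 differences of -1.96, -0.99 and -1.08 (adjusted p = 0.163, 0.148 and 0.148 in edgeR's test), without *Nr4a1-/-* control or without WT control. Without the cells of at least 5000 ADT counts, CD172a also lost its call in edgeR's test (adjusted p = 0.0528), but kept it in DESeq2 (adjusted p = 0.0159).

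Other proteins did not pass the test. CD86 had a log2 difference of 1.07 ± 0.37 (SE, edgeR's quasi-likelihood test, adjusted p = 0.117) and was higher in 3 of 4 libraries, and CD80 one of -0.82 ± 0.32 (SE, edgeR's quasi-likelihood test, adjusted p = 0.184). The exception for CD86 was *Nr4a1-/-* laser. Without the cDC1 of at least 5000 ADT counts, CD86 was higher there too, with 22.5 in cDC1 against 18.6 in the cDC2 gate. CD8a, which marks cDC1 of lymphoid organs, had 0.10 ± 0.27 (SE, edgeR's quasi-likelihood test, adjusted p = 0.96). CD40 had -0.02 ± 0.42 and CD274, the PD-L1 protein, -0.21 ± 0.35 (log2, SE). I-A/I-E, the MHC class II protein, belongs to the RNA rule and is described only. It had 2828 against 5226 in *Nr4a1-/-* laser, 4390.2 against 4529 in WT laser, 2148 against 3761 in *Nr4a1-/-* control, 2793 against 3731 in WT control, and the 2 cells of at least 5000 ADT counts lowered the cDC1 values of both *Nr4a1-/-* libraries. Without them it had 4180 against 5226 in *Nr4a1-/-* laser and 3492 against 3761 in *Nr4a1-/-* control.

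**Figure D3:**
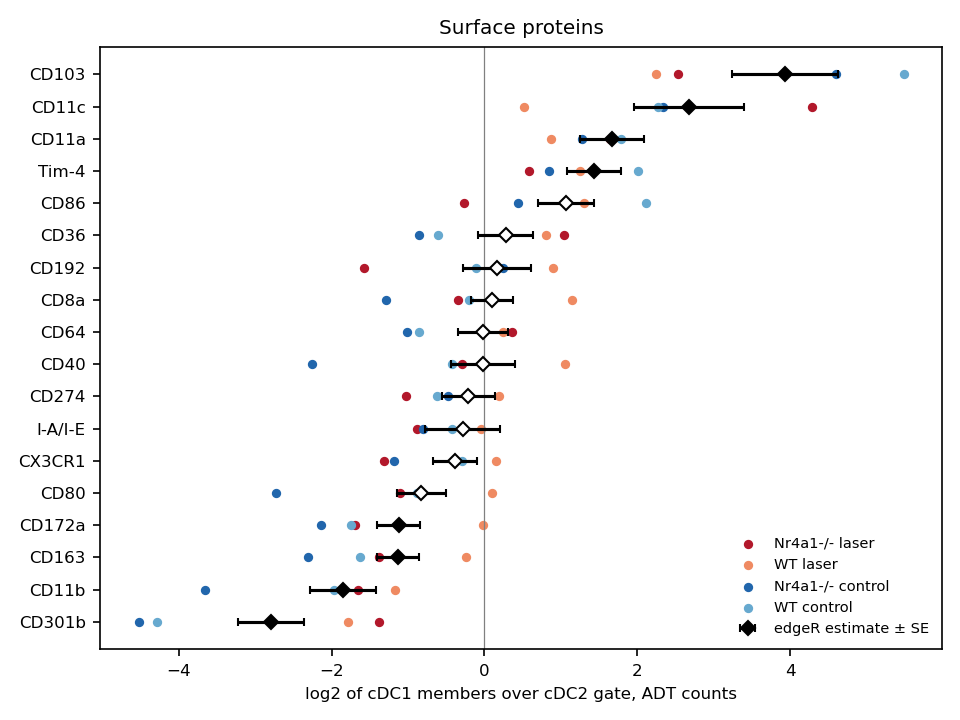
Log2 of ADT counts in cDC1 over the cDC2 gate (x axis) for 18 proteins. Coloured points are the 4 libraries, scaled to total ADT counts, and diamonds the edgeR estimate with its standard error, filled where the adjusted p was under 0.05. CD103 (3.94) and CD301b (-2.79) lie furthest from 0, and CD11c of *Nr4a1-/-* laser holds the cell with 5836 counts.

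Laser and control were compared within each genotype to ask what cDC1 expressed on day 3 of CNV. Of 2939 genes with a mean of at least 50 CPM, 65 (2.21%) were at least 2-fold higher in laser among *Nr4a1-/-* eyes and 70 (2.38%) among WT eyes. Lower by at least 2-fold were 91 (3.10%) among *Nr4a1-/-* eyes and 81 (2.76%) among WT eyes. In both genotypes, 17 genes (0.578%) were higher and 21 (0.715%) lower. Laser eyes also held more cDC1 with macrophage transcripts in WT, as given above, so each group of genes is followed by its count without such cells.

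*Ifitm2* and *Ifitm1* were among the higher genes. They encode membrane proteins that restrict virus entry. *Ifitm2* had 868 CPM in *Nr4a1-/-* laser and 755 in WT laser, against 369 in *Nr4a1-/-* control and 285 in WT control. Both laser libraries lay above both control libraries, with ratios of laser to control of 2.35 (2 to 2.77) in *Nr4a1-/-* eyes and 2.65 (2.29 to 3.07) in WT eyes. It was detected in 41, 84, 32 and 37 cDC1 of *Nr4a1-/-* laser, WT laser, *Nr4a1-/-* control and WT control. In B cells it was detected in 8.01% to 23.3% of cells. *Ifitm1* had 1045 CPM in *Nr4a1-/-* laser and 247 in WT laser, against 21.7 in *Nr4a1-/-* control and 49.7 in WT control, with ratios of 48.1 (28.8 to 86.7) in *Nr4a1-/-* eyes and 4.98 (3.57 to 7.13) in WT eyes. It was found in only 17 and 30 cDC1 of the laser libraries *Nr4a1-/-* and WT. With at least 3 markers its WT levels were 56.8 CPM in laser and 41.9 in control, and the log2 ratio in WT was 0.43. *Ifitm1* was higher in the cDC2 gate than in cDC1 in *Nr4a1-/-* laser (2267 CPM) and WT laser (1246 CPM).

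*Ifitm1* and *Ifitm2* are neighbours on chromosome 7 of GRCm38 (*Ifitm1* at 140967221 to 140969825 on the plus strand, *Ifitm2* at 140954837 to 140955987 on the minus strand). Their promoters are shown because these neighbours were both higher in laser in both genotypes, although the WT ratio of *Ifitm1* was under 2-fold with at least 3 markers. The sequences are from RefSeq for GRCm38.p6, 250 bases before to 50 after the RefSeq start, in the direction of each gene, at chr7:140967826-140968125 for *Ifitm1* and chr7:140955912-140956211 for *Ifitm2*. Capitals mark a match to GAAA, any 2 bases and GAAA again, the core of the interferon-stimulated response element.
Ifitm1: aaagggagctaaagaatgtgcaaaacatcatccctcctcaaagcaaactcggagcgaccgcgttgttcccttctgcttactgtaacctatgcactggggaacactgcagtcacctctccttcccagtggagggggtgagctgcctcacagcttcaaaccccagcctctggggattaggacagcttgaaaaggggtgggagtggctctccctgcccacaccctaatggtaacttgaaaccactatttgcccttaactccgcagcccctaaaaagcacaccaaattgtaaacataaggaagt
Ifitm2: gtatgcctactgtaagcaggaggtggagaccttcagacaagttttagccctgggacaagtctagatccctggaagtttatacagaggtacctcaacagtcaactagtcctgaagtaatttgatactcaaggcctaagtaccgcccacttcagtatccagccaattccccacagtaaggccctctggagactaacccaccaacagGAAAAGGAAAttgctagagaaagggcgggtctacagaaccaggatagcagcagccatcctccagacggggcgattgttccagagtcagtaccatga
Both strands were searched. The *Ifitm2* window held 1 match, which began 46 bases before the start, and the *Ifitm1* window none. The *Ifitm1* window lies inside the gene coordinates given above, downstream of their start. The sequence before that other start was not searched. Of 32851 promoters of this length, 1131 (3.44%) held such a match. Neither window held TTCNNNGAA (8.30% of promoters) or AAAGGTCA (1.51%), the site that NR4A receptors bind as monomers. A match is a description of the sequence and not evidence of binding.

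Other genes of the group act in antigen handling and chemotaxis. *Ifi30*, a lysosomal thiol reductase that prepares antigen and is induced by interferon-gamma, had 711 CPM in *Nr4a1-/-* laser and 661 in WT laser, against 338 in *Nr4a1-/-* control and 252 in WT control. Its laser levels were apart from its control levels in both genotypes, with ratios of 2.1 (1.77 to 2.51) in *Nr4a1-/-* eyes and 2.62 (2.24 to 3.07) in WT eyes. *Cxcl9*, the interferon-gamma-induced ligand of *Cxcr3* on activated T cells, had 36.4 CPM in *Nr4a1-/-* laser and 144 in WT laser, against 1.45 in *Nr4a1-/-* control and 49.7 in WT control, from 5, 11, 1 and 5 cells. It was thus a product of few cDC1, and its ratios were 25.1 (3.86 to 1057) in *Nr4a1-/-* eyes and 2.9 (2.05 to 4.2) in WT eyes. Without cells that held UMIs of other lineages, its log2 ratio in WT was 0.08. *Cd63*, a tetraspanin of late endosomes, had 84.9 CPM in *Nr4a1-/-* laser and 125 in WT laser, against 18.8 in *Nr4a1-/-* control and 8.91 in WT control, with ratios of 4.51 (2.33 to 9.28) in *Nr4a1-/-* eyes and 14 (6.65 to 35.3) in WT eyes. *Dab2*, an endocytic adaptor, had 129 CPM in *Nr4a1-/-* laser and 102 in WT laser, against 53.6 in *Nr4a1-/-* control and 17.8 in WT control.

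Genes of the cell cycle and of signalling were also in the group. *Ccnd2*, cyclin D2, had 77.6 CPM in *Nr4a1-/-* laser and 115 in WT laser, against 21.7 in *Nr4a1-/-* control and 24.2 in WT control, with ratios of 3.57 (1.88 to 7.1) in *Nr4a1-/-* eyes and 4.77 (2.96 to 8.13) in WT eyes. *Cdkn1a*, the cell cycle inhibitor p21, had 182 CPM in *Nr4a1-/-* laser and 229 in WT laser, against 81.1 in *Nr4a1-/-* control and 111 in WT control. *Pde4d*, which degrades cyclic AMP, had 126 CPM in *Nr4a1-/-* laser and 113 in WT laser, against 39.1 in *Nr4a1-/-* control and 48.4 in WT control, and *Stat4*, a factor of interleukin 12 signalling, 209 CPM in *Nr4a1-/-* laser and 146 in WT laser, against 62.3 in *Nr4a1-/-* control and 72.6 in WT control. For each of these 4 genes, both laser levels were above both control levels. *Cd300a*, *Wfdc17*, *Tmem176b*, *Maml3*, *Cfp*, *Pmvk* and *Emp1* complete the group. *Tmem176b* and *Wfdc17* were higher in the cDC2 gate than in cDC1 in every library, and the WT ratio of *Tmem176b* ended with at least 3 markers (log2 -0.09). Of the 17 genes, 13 kept a 2-fold difference in both pairs with at least 3 markers, whatever their mean level, 13 without cells holding UMIs of other lineages, and 16 without the top cell of each gene. With the 50 CPM limit applied to the cells of at least 3 markers, 18 genes were higher in both pairs, of which 8 were among the 17.

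The genes lower after laser included some of the genes with the widest gap between cDC1 and cDC2. *Cadm1*, an adhesion molecule and 1 of the 5 rule markers, had 398 CPM in *Nr4a1-/-* laser and 280.4 in WT laser, against 940.3 in *Nr4a1-/-* control and 1133 in WT control. Both laser levels lay below both control levels, with ratios of 0.423 (0.354 to 0.503) in *Nr4a1-/-* eyes and 0.247 (0.219 to 0.279) in WT eyes. Since *Cadm1* helped to choose the cells, this is a description. *P3h2*, with the high cDC1 levels given above, had ratios of 0.472 (0.377 to 0.587) in *Nr4a1-/-* eyes and 0.257 (0.217 to 0.304) in WT eyes. *Grk5*, a kinase that desensitizes G protein-coupled receptors, had 87.3 CPM in *Nr4a1-/-* laser and 46.6 in WT laser, against 304 in *Nr4a1-/-* control and 278 in WT control, and *Cldn1*, a tight junction claudin, 53.4 CPM in *Nr4a1-/-* laser and 30.8 in WT laser, against 187 in *Nr4a1-/-* control and 195 in WT control. *Xlr*, a lymphoid nuclear protein gene of the X chromosome, had 41.2 CPM in *Nr4a1-/-* laser and 35.1 in WT laser, against 161 in *Nr4a1-/-* control and 225 in WT control, with ratios of 0.256 (0.144 to 0.429) in *Nr4a1-/-* eyes and 0.156 (0.111 to 0.215) in WT eyes. All of these genes were at most 67.4 CPM in the cDC2 gate. The laser ratios of *Cadm1*, *P3h2*, *Grk5*, *Cldn1* and *Xlr* were lower in WT than in *Nr4a1-/-* eyes, and this difference was not tested. The cDC1 with exactly 2 markers were 29 of 88 in WT laser and 7 of 55 in WT control. In *Nr4a1-/-* eyes they were 10 of 52 in laser and 10 of 46 in control. Their part in the difference between genotypes was not tested.

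Receptors of uptake and adhesion followed. *Cd36*, a scavenger receptor for oxidized lipids and apoptotic cells, had 92.2 CPM in *Nr4a1-/-* laser and 109 in WT laser, against 289.8 in *Nr4a1-/-* control and 227 in WT control, with ratios of 0.318 (0.219 to 0.452) in *Nr4a1-/-* eyes and 0.481 (0.385 to 0.601) in WT eyes. *Cd81*, a tetraspanin, had 126 CPM in *Nr4a1-/-* laser and 129.8 in WT laser, against 288 in *Nr4a1-/-* control and 274 in WT control. Both laser levels were below both control levels for *Cd36* and *Cd81*. In the list of 5 genes above the limit for uptake of apoptotic cells, *Cd36* was lower in both pairs, and the median log2 ratio was -0.24 in *Nr4a1-/-* eyes and -0.64 in WT eyes, against 0.02 and 0.01 over all genes tested. *Fcrla*, *Pag1*, *Tcf7l2*, *Rnf150*, *Mxi1*, *Fam129a*, *Glcci1*, *Plekha2*, *Strip2* and *Ildr1* were also lower in both pairs.

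Cytokine genes among the lower ones came from few cells. *Tnf* had 19.4 CPM in *Nr4a1-/-* laser and 45.9 in WT laser, against 76.8 in *Nr4a1-/-* control and 163 in WT control, and 95 of its 128 UMIs in WT control were from 1 cell. Without the top cell of each library, its log2 ratio in WT was -0.24. *Il1a* had 7.28 CPM in *Nr4a1-/-* laser and 35.9 in WT laser, against 79.7 in *Nr4a1-/-* control and 101 in WT control, and without the top cells -0.54 in WT on the log2 scale. *Ccl4* had 230.4 CPM in *Nr4a1-/-* laser and 366 in WT laser, against 706 in *Nr4a1-/-* control and 805 in WT control with 498 of 632 UMIs in WT control from 1 cell. The monocyte gene *Ly6c2* turned to 1.37 on the log2 scale in *Nr4a1-/-* eyes with at least 3 markers. Of the 21 lower genes, 16 stayed 2-fold lower in both pairs with at least 3 markers, 17 without top cells, and 12 without cells that held UMIs of other lineages, whatever their mean level. With the 50 CPM limit applied again, 24 genes were lower in both pairs with at least 3 markers, 16 of them among the 21, and 20 without cells of other lineages, 11 of them among the 21.

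**Figure D4:**
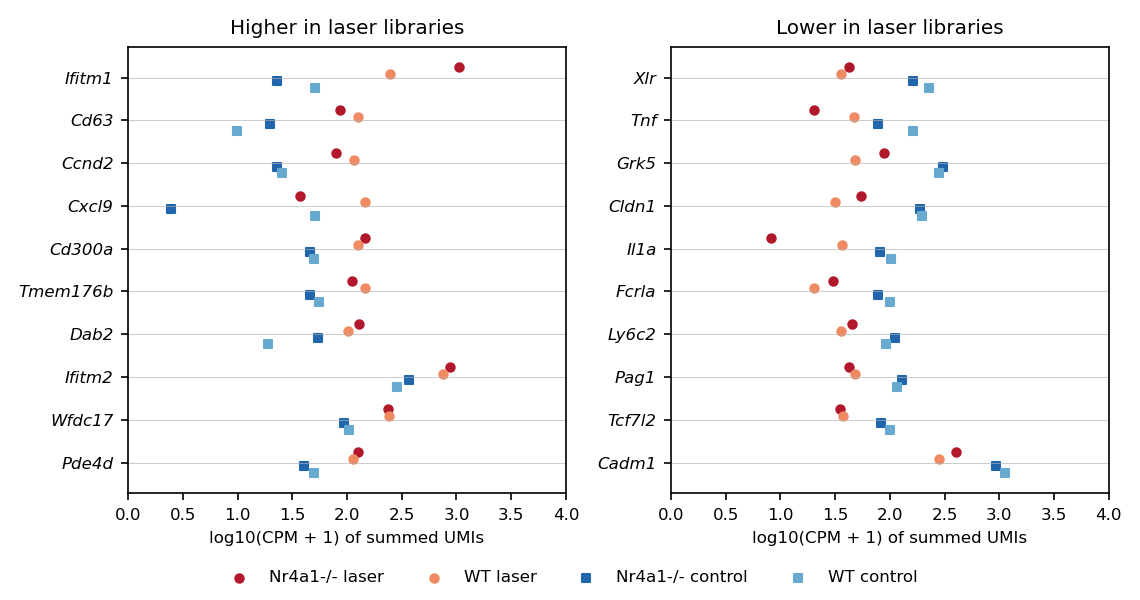
Levels of 20 genes in cDC1 as log10 of CPM + 1 (x axis), 10 higher (left) and 10 lower (right) after laser in both genotypes, ranked by the smaller change. Circles are the laser libraries and squares the control libraries. *Ifitm1* had the widest gap in *Nr4a1-/-* (1045 against 21.7 CPM), and *Cadm1* the highest levels among the lower genes.

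Lists of antigen presentation and of cDC1 genes were also compared between laser and control. The median log2 ratio over all genes tested was 0.02 in *Nr4a1-/-* eyes and 0.01 in WT eyes. The 11 MHC class II genes had a median log2 ratio of 0.07 in *Nr4a1-/-* eyes and 0.16 in WT eyes, and 0 were 2-fold in both pairs, although 2 were in WT eyes. *Cd74* had 17284 CPM in *Nr4a1-/-* laser and 19441 in WT laser, against 16854 in *Nr4a1-/-* control and 17414 in WT control, and *H2-Eb1* 8165 CPM in *Nr4a1-/-* laser and 9353 in WT laser, against 6885 in *Nr4a1-/-* control and 6601 in WT control. In the 15 measured cDC1 genes outside the rule, *Cd36* was the 1 gene past 2-fold in both pairs, and the list medians were 0.10 in *Nr4a1-/-* eyes and -0.25 in WT eyes. The WT median was thus below that of all genes. In WT eyes 2 of the 15 were 2-fold lower and 0 higher, against 2.76% and 2.38% of all genes. *Irf8*, *Naaa* and *Cd24a* differed by less than 2-fold between all libraries. Of 20 genes of MHC class I and cross-presentation, *Ifi30* alone was past 2-fold in both pairs. Of 6 interferon response genes above the limit, 0 were, with medians of 0.44 in *Nr4a1-/-* eyes and 0.21 in WT eyes. *Isg15* had 75.2 CPM in *Nr4a1-/-* laser and 145 in WT laser, against 24.6 in *Nr4a1-/-* control and 73.9 in WT control. *Cd274* and *Pdcd1lg2*, the PD-1 ligands, were below the 50 CPM limit. *Cd274* had 32 UMIs in *Nr4a1-/-* laser and 57 in WT laser, against 10 in *Nr4a1-/-* control and 13 in WT control, and *Pdcd1lg2* 24 UMIs in *Nr4a1-/-* laser and 31 in WT laser, against 1 in *Nr4a1-/-* control and 6 in WT control. In CPM both were higher in the laser library of each genotype. For 3 lists, counts in a single pair are given beside those of all genes, of which 2.21% were higher and 3.10% lower in *Nr4a1-/-* eyes, and 2.38% higher and 2.76% lower in WT eyes. Of 20 immediate-early and stress genes, 0 were higher and 4 lower after laser in *Nr4a1-/-* eyes, while 6 were higher and 0 lower in WT eyes. Of 8 cell cycle genes, 4 were higher and 0 lower in *Nr4a1-/-* eyes, while 1 was higher and 2 lower in WT eyes. Of 3 macrophage markers above the limit, 3 were higher in WT eyes and 0 in *Nr4a1-/-* eyes. Whether the genotypes differed in these lists was not tested.

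*Nr4a1* was measured first in the comparison of genotypes. *Nr4a1* is an immediate-early nuclear receptor, and lies on chromosome 15 of GRCm38 at 101254269 to 101274795. It had 65.5 CPM in *Nr4a1-/-* laser and 340.0 in WT laser, against 95.6 in *Nr4a1-/-* control and 253 in WT control. Both *Nr4a1-/-* levels were below both WT levels, with ratios of *Nr4a1-/-* to WT of 0.193 (0.126 to 0.284) after laser and 0.377 (0.281 to 0.501) without laser. Transcripts of the locus were thus still counted in *Nr4a1-/-* cDC1, in 17 cells after laser and 29 in control. The libraries count 3' ends, and the sources used here do not say which part of the transcript is lost, so this level does not check the loss of the protein. The relatives *Nr4a2* and *Nr4a3* were not lower. *Nr4a2* had 652 CPM in *Nr4a1-/-* laser and 481 in WT laser, against 513 in *Nr4a1-/-* control and 411 in WT control, with ratios of 1.36 (1.17 to 1.57) after laser and 1.25 (1.07 to 1.45) without laser. *Nr4a3* had 303 CPM in *Nr4a1-/-* laser and 234 in WT laser, against 449 in *Nr4a1-/-* control and 265 in WT control, with ratios of 1.3 (1.05 to 1.6) after laser and 1.7 (1.42 to 2.03) without laser. Neither reached 2-fold in a pair, although the level of each was higher in *Nr4a1-/-* than in WT in both pairs.

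Few other genes differed between genotypes in both pairs. The pairs use the same 4 libraries as the comparison of laser with control. Of 2939 genes, 36 (1.22%) were at least 2-fold higher in *Nr4a1-/-* after laser and 45 (1.53%) without laser, while 68 (2.31%) were lower after laser and 36 (1.22%) without. In both pairs, 2 genes (0.0681%) were higher and 9 (0.306%) lower.

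*Zfpm2*, a cofactor of GATA factors that lies on chromosome 15 at 40655035 to 41104592, was higher. It had 40 UMIs in *Nr4a1-/-* laser and 8 in WT laser, against 153 in *Nr4a1-/-* control and 0 in WT control, in 10, 4, 21 and 0 cDC1 of *Nr4a1-/-* laser, WT laser, *Nr4a1-/-* control and WT control. The laser pair had a ratio of 16.9 (7.81 to 41.8), and the control pair was at least 58.0-fold higher in *Nr4a1-/-*, with 3 UMIs taken as the limit of 0 in WT control. *Zfpm2* was at 0 in the cDC2 gate of every library, and 0.292% to 1.67% of B cells held a UMI of it. *Nr4a1* and *Zfpm2* lie on the same chromosome, and strain and genotype cannot be told apart here. *Ccl5*, the second higher gene, had 28 UMIs in *Nr4a1-/-* laser and 24 in WT laser, against 115 in *Nr4a1-/-* control and 10 in WT control, and 111 of the 115 in *Nr4a1-/-* control came from 1 cell.

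The lower genes besides *Nr4a1* formed 2 kinds. *Gm10076*, *Atp5k* and *Lst1* were spread over many cells, but each fell short of 2-fold in 1 pair without cells of other lineages. *Gm10076*, a predicted gene, had 75.2 CPM in *Nr4a1-/-* laser and 194 in WT laser, against 68.1 in *Nr4a1-/-* control and 284 in WT control, with ratios of 0.387 (0.258 to 0.562) after laser and 0.24 (0.171 to 0.33) without laser. Reads that it may share with similar genes were not examined. *Atp5k*, a subunit of mitochondrial ATP synthase, had 102 CPM in *Nr4a1-/-* laser and 236 in WT laser, against 81.1 in *Nr4a1-/-* control and 171 in WT control, with ratios of 0.432 (0.305 to 0.596) after laser and 0.475 (0.342 to 0.654) without laser. Both *Nr4a1-/-* levels were below both WT levels for each. In the cDC2 gate *Gm10076* had 60.7 CPM in *Nr4a1-/-* laser and 206 in WT laser, against 61.6 in *Nr4a1-/-* control and 251 in WT control, so its lower level was not particular to cDC1. *Lst1*, a transcript of myeloid cells, had 50.9 CPM in *Nr4a1-/-* laser and 105 in WT laser, against 27.5 in *Nr4a1-/-* control and 68.8 in WT control. Both *Nr4a1-/-* levels of *Lst1* were also below both WT levels. Without cells of other lineages, the log2 ratio was -0.90 for *Gm10076* and -0.81 for *Lst1* after laser, and -0.81 for *Atp5k* in control.

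Chemokines and cytokines made up the other kind, and few cells carried them. *Cxcl2*, a chemokine for neutrophils, had 99.4 CPM in *Nr4a1-/-* laser and 676 in WT laser, against 106 in *Nr4a1-/-* control and 620.2 in WT control, and 342 of 487 UMIs in WT control were from 1 cell. *Ccl3*, an inflammatory chemokine, had 14.6 CPM in *Nr4a1-/-* laser and 92.5 in WT laser, against 21.7 in *Nr4a1-/-* control and 225 in WT control, with 165 of 177 UMIs in WT control from 1 cell. Without cells that held UMIs of other lineages, the control pair turned to 3.31 for *Cxcl2* and 1.64 for *Ccl3* on the log2 scale. *Tnf* turned to 1.99 in the laser pair, and its control pair had no difference left, in the same way. *Cxcl9* was lower in *Nr4a1-/-* in both pairs, with ratios of 0.252 (0.139 to 0.426) after laser and 0.0292 (0.00072 to 0.172) without laser, and *S100a8*, a neutrophil gene, came from 1, 2, 1 and 4 cells. Of the 9 lower genes, *Nr4a1* alone kept a 2-fold difference in both pairs without cells holding UMIs of other lineages, whereas 9 did with at least 3 markers. With the 50 CPM limit applied to those cells, 14 genes were lower, of which 8 were among the 9.

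**Figure D5:**
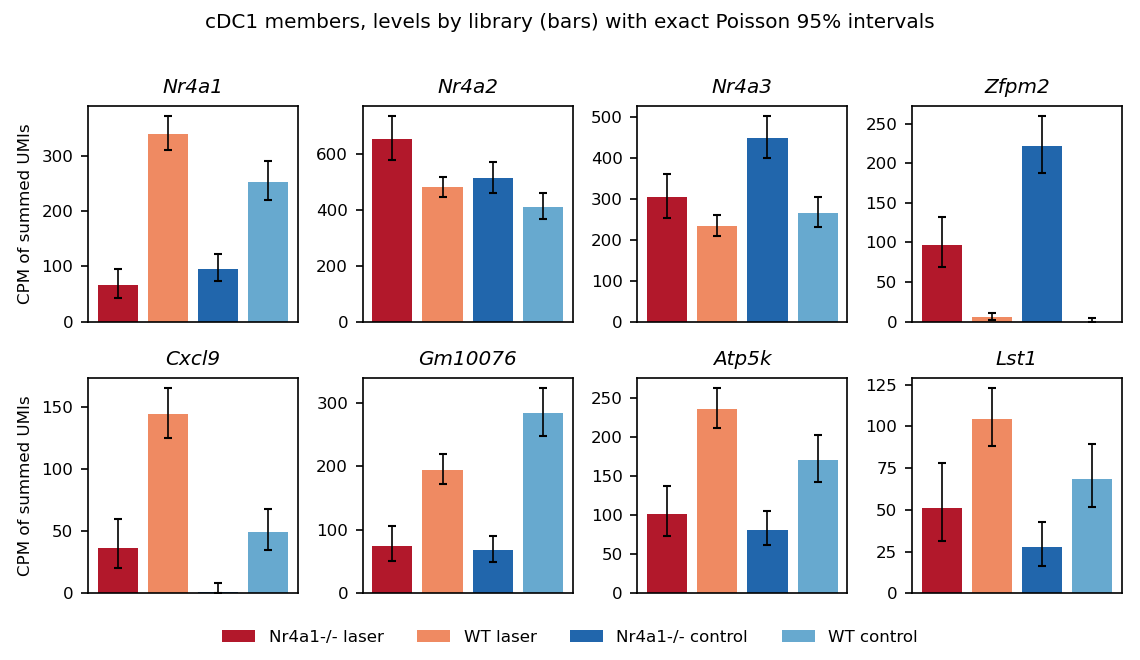
Levels of 8 genes in cDC1 in CPM (y axis, from 0), with 1 bar per library and exact 95% Poisson intervals. *Nr4a1* was lower in both *Nr4a1-/-* libraries, *Nr4a2* and *Nr4a3* were not, and *Zfpm2* was at 222 CPM in *Nr4a1-/-* control and 0 in WT control.

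The same lists were compared between genotypes. The 11 MHC class II genes had medians of -0.08 after laser and 0.02 without laser, *Nr4a1-/-* over WT on the log2 scale, against 0.04 and 0.02 over all genes. The 15 cDC1 genes outside the rule had medians of 0.07 and -0.02, and 0 were past 2-fold in either pair. The 10 chemokines had medians of -1.03 and -0.36, with 3 lower and 1 higher in both pairs, against 0.306% and 0.0681% of all genes. Of these, *Cxcl2* and *Ccl3* in WT control and *Ccl5* in *Nr4a1-/-* control came mostly from 1 cell each, as given above. Of 20 immediate-early and stress genes, 5 were higher and 0 lower in *Nr4a1-/-* control than in WT control, while 0 were higher and 2 lower in *Nr4a1-/-* laser than in WT laser. Over all genes the shares were 1.53% higher and 1.22% lower in control, and 1.22% higher and 2.31% lower after laser. *Atf3*, a stress-induced transcription factor, had 718 CPM in *Nr4a1-/-* laser and 668 in WT laser, against 382 in *Nr4a1-/-* control and 262 in WT control, and *Jun* 272 CPM in *Nr4a1-/-* laser and 396 in WT laser, against 488 in *Nr4a1-/-* control and 168 in WT control. These genes respond to tissue dissociation as well, and the part of dissociation was not tested.

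A minority of cDC1 carried transcripts of dividing cells. UMIs of at least 2 of 8 proliferation markers were found in 17.3% (8.23 to 30.3) of cDC1 in *Nr4a1-/-* laser and 19.3% (11.7 to 29.1) in WT laser, against 10.9% (3.62 to 23.6) in *Nr4a1-/-* control and 14.5% (6.50 to 26.7) in WT control. The cDC2 gate had 16.7%, 10.3%, 10.7% and 23.8% in the same libraries. All intervals of cDC1 overlapped. After thinning to 2000 UMIs per cell, with shallower cells left out, the cDC1 shares were 11.8%, 6.90%, 4.35% and 7.41% in the same order. No order of the groups could thus be read at this depth. *Top2a*, the topoisomerase of dividing cells, had 182 CPM in *Nr4a1-/-* laser and 32.3 in WT laser, against 40.6 in *Nr4a1-/-* control and 122 in WT control, and *H2afz*, a histone variant, 2617 CPM in *Nr4a1-/-* laser and 2833 in WT laser, against 2915 in *Nr4a1-/-* control and 2551 in WT control.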

How the data were processed

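RNA and 87 surface proteins were measured in the same cells of 4 libraries. What the authors deposited are UMI counts of each gene and ADT in each barcode that Cell Ranger 7.0.1 called as a cell, against mm10, and these were not normalized. The labels name another kit version than the study's methods. The limits of 200 to 5000 genes and 15% mitochondrial UMIs are those of the study's methods. No doublet caller was run. Doublets were treated through the upper limit on genes and an alternative without cDC1 that held 3 or more UMIs of other lineages.

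Counts were summed per gate and library and given as CPM. Ratios carry exact conditional binomial 95% intervals, single levels exact Poisson intervals, and shares exact Clopper-Pearson intervals. UMIs of 1 pool of mice are not replicates, so intervals cover counting error only. The cDC1 held 412353 UMIs in *Nr4a1-/-* laser and 1394299 in WT laser, against 690235 in *Nr4a1-/-* control and 785283 in WT control. Genes with a mean of at least 50 CPM were compared between libraries, and a gene was called at 2-fold, with 0.5 added to each count for log2 ratios. ADT sums of at least 40 counts were tested with edgeR 4.0.16 (quasi-likelihood, TMM, the library as a block, 3 residual degrees of freedom, Benjamini-Hochberg adjustment), with DESeq2 1.42.0 as an alternative. The fit was tested on simulated data. Python 3.11.15, scipy 1.17.1 and R 4.3.3 were used. Of 32285 genes, 32235 matched GENCODE M21 annotation of GRCm38, which gave the gene coordinates. Promoters were from RefSeq. Some items of the gene lists are not reported here.

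The members and gene lists were chosen with earlier results of these data known. Named genes were the genes of the rule, the NR4A family, up to 4 genes of each of 27 lists by mean CPM and any list gene past 2-fold in both pairs. To these were added up to 12 genes per direction against the cDC2 gate and up to 10 per direction for laser and genotype, by the smaller change and with UMIs in at least 5 cells. The other genes past 2-fold in both pairs for laser were listed after their values were seen. Alternatives varied the number of markers, depth, filters, scaling and cells left out. Those without top cells, without cells of 5000 or more ADT counts, with no upper limit on genes, and for RNA ratios with at least 3 markers, were chosen after seeing the data.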

Additional observations from a re-analysis of the deposited data

Results flagged for a closer look

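For 5 genes, the log2 ratio of laser to control had opposite signs in the 2 genotypes, with at least 2-fold in each. The difference between genotypes was not tested, since each group is 1 library. *Ccl6*, a chemokine, had -1.24 in *Nr4a1-/-* eyes and 1.01 in WT eyes, with 102 CPM in *Nr4a1-/-* laser and 315 in WT laser, against 242 in *Nr4a1-/-* control and 155 in WT control. The heat shock genes *Hspa1a* and *Dnajb1* followed the same order. *Hspa1a* had -6.58 in *Nr4a1-/-* eyes and 3.70 in WT eyes, with 2 UMIs in *Nr4a1-/-* laser and 34 in WT laser, against 401 in *Nr4a1-/-* control and 1 in WT control. *Dnajb1* had -2.32 in *Nr4a1-/-* eyes and 1.39 in WT eyes, with 15 UMIs in *Nr4a1-/-* laser and 53 in WT laser, against 129 in *Nr4a1-/-* control and 11 in WT control. Both were thus highest in *Nr4a1-/-* control, the library with another name prefix. The proliferation genes *Mki67* and *Top2a* had the opposite order. *Mki67* had 1.90 in *Nr4a1-/-* eyes and -1.38 in WT eyes, with 54 UMIs in *Nr4a1-/-* laser and 53 in WT laser, against 24 in *Nr4a1-/-* control and 78 in WT control. *Top2a* had 2.15 in *Nr4a1-/-* eyes and -1.91 in WT eyes, with 75 UMIs in *Nr4a1-/-* laser and 45 in WT laser, against 28 in *Nr4a1-/-* control and 96 in WT control. *Mki67* was detected in 9, 18, 7 and 13 cDC1 of *Nr4a1-/-* laser, WT laser, *Nr4a1-/-* control and WT control, and 163 of the 401 *Hspa1a* UMIs of *Nr4a1-/-* control were from 1 cell.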

How the results depend on the processing

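No paired analysis was possible because each condition has 1 library and the labels give no replicate numbers that pair samples. This concerns laser and genotype, whereas the ADT test compared gates within each library, with the library as a block. Over all alternatives of single values, 387 of 400 log2 ratios of the named laser genes stayed past 2-fold in their direction. For the named genotype genes, 162 of 180 did. Both tallies include the lower and the higher limit on mean CPM, which select genes and cannot change the ratio of a gene. The genes were also named because they passed 2-fold in both pairs of the same data. The tallies are therefore descriptions and no test of how stable the ratios are. The cause of a change was not tested except where cells or genes were left out by construction.

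Thinning left out kept cells under 2000 UMIs. Shares of the remaining cells, thinned to 2000 UMIs, were 2.36% in *Nr4a1-/-* laser and 1.07% in WT laser, against 1.64% in *Nr4a1-/-* control and 1.04% in WT control. The ratio of *Nr4a1-/-* to WT after laser was 2.20, while that of laser to control in WT was 1.03. Without cDC1 holding UMIs of other lineages, shares were 0.791% in WT laser, against 1.29% in *Nr4a1-/-* control and 0.983% in WT control. The ratios were 2.99 for *Nr4a1-/-* to WT after laser and 0.805 for laser to control in WT. This cut at 3 UMIs removed 58 of 88 cDC1 in WT laser and 13 of 52 in the shallower *Nr4a1-/-* laser. With at least 3 markers the share in WT laser was 1.56%. Of the dendritic gates, WT laser had 33.9% with at least 3 markers and 20.7% without cells of other lineages, and *Nr4a1-/-* control had 44.1% without such cells and 72.1% after thinning. The ratios without such cells were 2.55 for *Nr4a1-/-* to WT after laser and 0.358 for laser to control in WT. The limits on markers and on other lineages removed cells from cDC1 only and left the cDC2 and migratory gates as they were. The share of cDC1 among these gates could therefore only fall. Dividing cDC1 in WT laser were 6.90% after thinning. With 1 marker they were 34.1% in WT laser, against 30.4% in *Nr4a1-/-* control and 34.5% in WT control.

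ADTs called higher numbered 1 without the library block, without cells of other lineages or without cells of 5000 or more ADT counts, and 2 with no upper limit on genes. ADTs called lower numbered 2 without TMM, without the block, and without TMM and the cells of 5000 or more counts. Leaving out 1 library gave 0 to 4 higher and 1 to 4 lower. Without *Nr4a1-/-* laser they were 0 higher and 1 lower in edgeR's test. Against the cDC2 gate, 100 genes were higher and 177 lower with at least 3 markers.

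In both pairs for laser, 52 genes were higher and 44 lower at 20 CPM, and 6 and 11 at 100 CPM. The higher genes numbered 30 without cells of other lineages and 27 with no upper limit on genes. For genotype, 12 were higher and 19 lower at 20 CPM, and 0 and 5 at 100 CPM. The higher genes numbered 5 without cells of other lineages or without dividing cells, 4 with at least 3 markers, and 1 without top cells or with no upper limit, and the lower ones 14 with at least 3 markers. Single-pair counts moved over 1.5 times as well. At 20 CPM, 254 genes were higher and 278 lower for laser in *Nr4a1-/-*, 225 and 205 in WT, and for genotype 177 and 192 after laser, 175 and 132 without. At 100 CPM these were 19, 32, 30 and 38 for laser and 11, 28, 17 and 16 for genotype. Without cells of other lineages, laser had 127 higher in *Nr4a1-/-* and 131 in WT, and genotype 70 higher after laser and 71 lower without. With at least 3 markers, laser had 101 higher in *Nr4a1-/-*, and genotype 57 higher and 40 lower after laser and 19 higher without. Without dividing cells, 117 were higher for laser in WT and 72 for genotype without laser, and with no upper limit 22 were higher for genotype after laser. On the log2 scale, signs turned for *Tmem176b* (-0.0895 in WT) and *Ly6c2* (1.37 in *Nr4a1-/-*) for laser with at least 3 markers, for *Ccl3* (1.64), *Cxcl2* (3.31) and *Tnf* (0.00127) in the control pair and *Tnf* (1.99) in the laser pair without cells of other lineages, and for *Tnf* (0.19) in the control pair without top cells. Zeros below 3 UMIs per library could not be told from low expression.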
